A study of Mus musculus with 14 samples.

Results

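The acetylcholine genes described here are Chrm3 and Chrm1, which encode the M3 and M1 muscarinic receptors, Chat, the enzyme that makes acetylcholine, Ache and Bche, the enzymes that break it down, and Slc44a1, a choline transporter. They were taken from both count tables by gene symbol and are 6 of the 55335 genes listed there, each with a single identifier kept (the one with the highest total count). The RNA came from mouse intestinal stem cells sorted for the EGFP that is expressed from the Lgr5 locus. Lgr5 marks the dividing cells at the crypt base that renew the gut epithelium.

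In the first experiment every mouse carried the Lgr5CreERT2-IRES-GFP allele and Chrm3 flox/flox. KO mice were injected with tamoxifen and WT mice with vehicle, over 3 days before the procedure abbreviated ES, so that the receptor deletion and the injected agent changed together. The 4 groups were KO ES, KO NT, WT ES and WT NT, with n = 2 libraries each, where NT is the condition without ES. In the second experiment the mice carried Lgr5CreERT2-IRES-GFP alone and were old (18 months) or young (2 months), with n = 3 libraries each. Cre is driven from the Lgr5 locus, so the deletion is aimed at the sorted cells and their progeny, and which stretch of Chrm3 is floxed was not stated in the labels. The labels do not say that each library came from its own animal, so p-values measure the spread between libraries.

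Acetylcholine is made from choline and acetyl-CoA by choline acetyltransferase and is split back to choline and acetate by cholinesterases, acetylcholinesterase being the fast and selective one and butyrylcholinesterase the broader one. Muscarinic receptors are G protein-coupled. M1 and M3 act through Gq, phospholipase C and intracellular calcium, and M3 is the receptor best known in gut epithelium and smooth muscle, where it drives secretion and contraction. Besides enteric neurons, tuft cells of the epithelium, which sense luminal signals, are a known source of acetylcholine in the intestine.

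The stretches just before the start sites of Chrm3 and Chat are shown because these are the receptor targeted in KO and the gene with 0 counts in both KO NT libraries. RefSeq sequences (GRCm38.p6) were at hand for 5 of the 6 genes, all but Chrm1, and bases that lie in annotated exons were left out except for a single short site. The Chrm3 stretch is chr13:10360848-10361053 and the first Chat stretch is chr14:32465990-32466159, both on the minus strand and written 5′ to 3′. The second Chat stretch, chr14:32465911-32465940 on the minus strand, lies in the annotated 5′ exon. Capitals mark CACGTG, an E-box, in the first Chat stretch and TGCAAAT, the core of the POU octamer, in the second.
Chrm3: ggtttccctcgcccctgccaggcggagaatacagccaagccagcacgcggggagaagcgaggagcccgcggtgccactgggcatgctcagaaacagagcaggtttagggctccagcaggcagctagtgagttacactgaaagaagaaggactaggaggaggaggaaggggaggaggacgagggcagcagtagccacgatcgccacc
Chat, before the first exon: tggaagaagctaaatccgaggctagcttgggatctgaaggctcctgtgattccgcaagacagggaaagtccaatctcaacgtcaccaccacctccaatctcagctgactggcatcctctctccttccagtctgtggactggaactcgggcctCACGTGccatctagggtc
Chat, octamer site: agcctgtcgccTGCAAATcaggacgctcag
The 250 bases before each of the 5 start sites were searched on both strands for the octamer core (TGCAAAT), the AP-1 site (TGANTCA), the CRE (TGACGTCA) and the E-box (CACGTG), and no 2 of the matches found overlapped. In Chat the octamer core starts 20 bases and the E-box 98 bases before the RefSeq start site, and Ache holds an E-box 199 bases before its own. None of the 4 motifs is in the Chrm3, Bche or Slc44a1 windows. Of 32817 windows of this length over all genes, 3.57% hold the octamer core, 6.75% the AP-1 site, 1.55% the CRE and 6.02% the E-box. A match describes these letters only.

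On GRCm38, Chrm3 lies on the minus strand of chromosome 13 (9875486 to 10360847), and its whole coding sequence of 1767 bases sits in a single exon (9877232 to 9878998) out of 6253 exon bases. Where along the exons the reads fall cannot be read from counts per gene. Chrm1 lies on chromosome 19 (8663789 to 8683587, plus strand), with its 1380 coding bases likewise in a single exon. Ache is on chromosome 5 (137287519 to 137294466, plus), Bche on chromosome 3 (73635808 to 73708415, minus), Chat on chromosome 14 (32408203 to 32465989, minus) and Slc44a1 on chromosome 4 (53440413 to 53622478, plus). An antisense gene, 1700060J05Rik, overlaps 310 exon bases of Slc44a1 and had 29 to 51 counts per library. The libraries mark strand, but the strand setting of the counting was not stated, so reads in that overlap are uncertain.

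The 14 libraries held 26.7 to 36.9 M counts, and mitochondrial genes took 6.12% to 8.74% of them. The highest mitochondrial share was in KO NT replicate 2. That library also differed from its partner in the summed level of 10 enterocyte genes (2206 against 1579 CPM). Several results that use KO NT are therefore also given without it. CPM is the count of a gene per M of library counts, after scaling by trimmed mean of M-values (TMM) within each experiment. The stem cell markers Lgr5 and Olfm4 were high throughout, at 80.3 to 133 CPM and 7975 to 12846 CPM. The same libraries held Paneth (6910 to 11260 CPM summed over 10 genes), goblet (2539 to 10342 CPM over 8) and enterocyte genes (1534 to 2603 CPM over 10), so the sorted fraction was not made of stem cell RNA alone. Summed markers of enteric neurons were at 1.29 to 3.89 CPM, of glia at 1.33 to 3.85 CPM and of stroma and smooth muscle at 0 to 0.222 CPM. In such bulk RNA, fewer cells of a type and less RNA per cell cannot be told apart.

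Per kilobase of exon, the scale on which genes can be set beside each other, the choline transporter and butyrylcholinesterase led. Averaged over the 14 libraries, Slc44a1 was at 40.8 CPM per kb, Bche at 17.5, Ache at 2.00, Chrm3 at 1.74, Chrm1 at 0.698 and Chat at 0.106. Slc44a1 was above Bche, Bche above Ache, Chrm3 above Chrm1 and Chrm1 above Chat in 14 of 14 libraries. The places of Ache and Chrm3 were not fixed, with Ache the higher in 10 of 14 libraries, which included 3 of 3 old and 0 of 3 young ones.

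**Figure D1:**
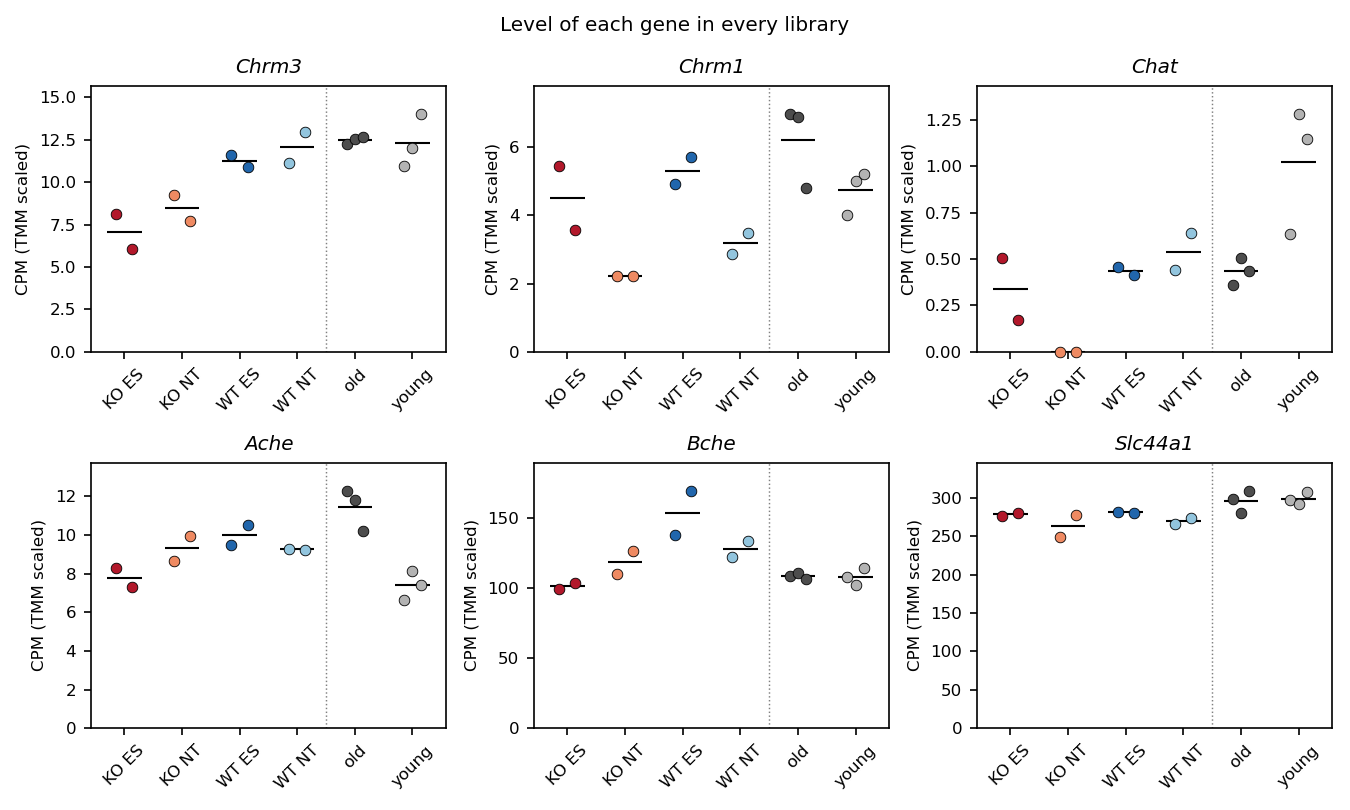
CPM after TMM scaling (linear axes from 0, a separate scale for each gene) in every library of the 6 groups, 1 point per library with a bar at the group mean. Chrm3 sits lower in the 4 KO libraries than in the 4 WT libraries, Chrm1 higher in the 4 ES than in the 4 NT libraries, Ache higher in old than in young, and Chat is at 0 in both KO NT libraries.

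Of the 2 receptors, Chrm3 was lower in KO and Chrm1 was higher with ES. Chrm3 had 8.13 and 6.04 CPM in KO ES against 11.6 and 10.9 CPM in WT ES, and 9.24 and 7.71 CPM in KO NT against 11.2 and 13.0 CPM in WT NT. All 4 KO libraries were below all 4 WT libraries, but every KO library kept more than 200 counts of the gene (213 to 343). Over both treatments the log2 fold change of Chrm3 in KO against WT was -0.59 ± 0.12 (SE), with a 95% interval of -0.85 to -0.33, a level of 0.665 times that in WT. It passed edgeR's quasi-likelihood test with Benjamini-Hochberg adjustment over all 17364 tested genes (adjusted p = 0.00849), and without WT NT replicate 2 it did not (-0.53, adjusted p = 0.0524). Without KO NT replicate 2 it was also -0.53 and passed (adjusted p = 0.0145). A count over all exons does not separate reads of a deleted exon from the others, so it checks the KO label only in part.

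By treatment, the log2 fold change of Chrm3 in KO against WT was -0.68 ± 0.17 in ES (adjusted p = 0.0363) and -0.50 ± 0.16 in NT (adjusted p = 0.119). Without KO NT replicate 2 the NT value of Chrm3 was -0.37. The difference of the ES effects on Chrm3, KO minus WT, was -0.17 with a 95% interval of -0.69 to 0.34 (adjusted p = 0.852). The fall was thus not shown to differ between treatments. Without KO NT replicate 2 this difference was -0.32. The ES call did not hold on omitting KO ES replicate 2 (0.243), WT ES replicate 1 (0.171) or 2 (0.125), or WT NT replicate 1 (0.0640) or 2 (0.0661), or with no count filter (0.117), these being adjusted p. ES itself gave no call for Chrm3, with log2 fold changes of -0.27 in KO (adjusted p = 0.761) and -0.10 in WT (adjusted p = 0.814).

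Chrm3 did not track age. It had 12.2, 12.6 and 12.7 CPM in old and 10.98, 12.0 and 13.99 CPM in young libraries. The old values all lay inside the range of the young ones. The log2 fold change was 0.02 with a 95% interval of -0.24 to 0.27 (adjusted p = 0.960).

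Chrm1 had 5.46 and 3.58 CPM in KO ES against 2.24 and 2.22 CPM in KO NT, and 4.91 and 5.72 CPM in WT ES against 2.86 and 3.49 CPM in WT NT. Every ES library was above every NT library, although KO ES replicate 2 was only just above the higher WT NT library. Over both genotypes Chrm1 rose with ES by a log2 fold change of 0.87 ± 0.18 (95% interval 0.49 to 1.26), 1.83-fold, with an adjusted p of 0.0277. It was the single gene of the 6 called in this comparison, in which 2.57% of all tested genes were called and 1.8% as higher with ES. It did not hold on omitting KO ES replicate 1 (adjusted p = 0.0715), WT ES replicate 1 (0.0715) or 2 (0.0869), or WT NT replicate 1 (0.139) or 2 (0.103), with log2 fold changes from 0.71 to 1.02 over all 8 libraries left out in turn. With no count filter the adjusted p was 0.0988, and without KO NT replicate 2 the change was 0.88 (adjusted p = 0.0292).

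Within a genotype the rise of Chrm1 did not pass, at 1.01 ± 0.25 in KO (adjusted p = 0.152) and 0.74 ± 0.24 in WT (adjusted p = 0.126), and the difference between these effects was 0.27 with a 95% interval of -0.52 to 1.05. Its values in KO against WT, at -0.24 ± 0.22 in ES (adjusted p = 0.577) and -0.51 ± 0.27 in NT (adjusted p = 0.377), did not pass either. In old libraries Chrm1 had 6.96, 6.89 and 4.81 CPM, against 4.02, 5.004 and 5.21 CPM in young ones. The lowest old library fell among the young ones, and the log2 fold change of 0.39 ± 0.19 did not pass (adjusted p = 0.267).

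The makeup of the receptor RNA shifted with these levels. Per kilobase, Chrm1 was 39.3% and 36.3% of Chrm1 plus Chrm3 in KO ES against 18.9% and 21.7% in KO NT, and 28.96% and 33.6% in WT ES against 19.8% and 20.6% in WT NT. All ES libraries were above all NT libraries, and KO ES stood above WT ES, while KO NT and WT NT interleaved. The share was 35.4%, 34.6% and 26.8% in old and 26.1%, 28.7% and 26.4% in young libraries, which overlap. These shares were not tested.

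Some genes of secretory cells rose with ES, as Chrm1 did. With ES over both genotypes, 9 of 10 Paneth, 8 of 8 goblet and 3 of 13 tested enteroendocrine markers rose and none of these fell. Of 15 tested tuft markers 0 were called. Of 10 stem cell markers 6 fell and none rose. The 14 enteroendocrine markers summed to 162 to 175 CPM in KO ES against 128 to 147 CPM in KO NT, and to 277 to 295 CPM in WT ES against 170 to 184 CPM in WT NT. The 10 Paneth markers summed to 10938 to 11260 CPM in KO ES against 6910 to 8703 CPM in KO NT, and to 10441 to 11095 CPM in WT ES against 8732 to 8790 CPM in WT NT. Like Chrm1, the Paneth sum was higher in every ES library than in every NT library. So was the sum of 10 lymphocyte and myeloid markers. It was 94.4 to 106 CPM in KO ES and 94.1 to 97.3 CPM in WT ES, against 68.5 to 82.5 CPM in KO NT and 79.6 to 82.5 CPM in WT NT. The goblet sum was not, as its 4332 to 4365 CPM in KO ES lay below the 4988 to 5105 CPM in WT NT. Nor was the enteroendocrine sum, whose KO ES values overlapped those of WT NT. The part of these cell types in the change of Chrm1 was not tested.

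**Figure D2:**
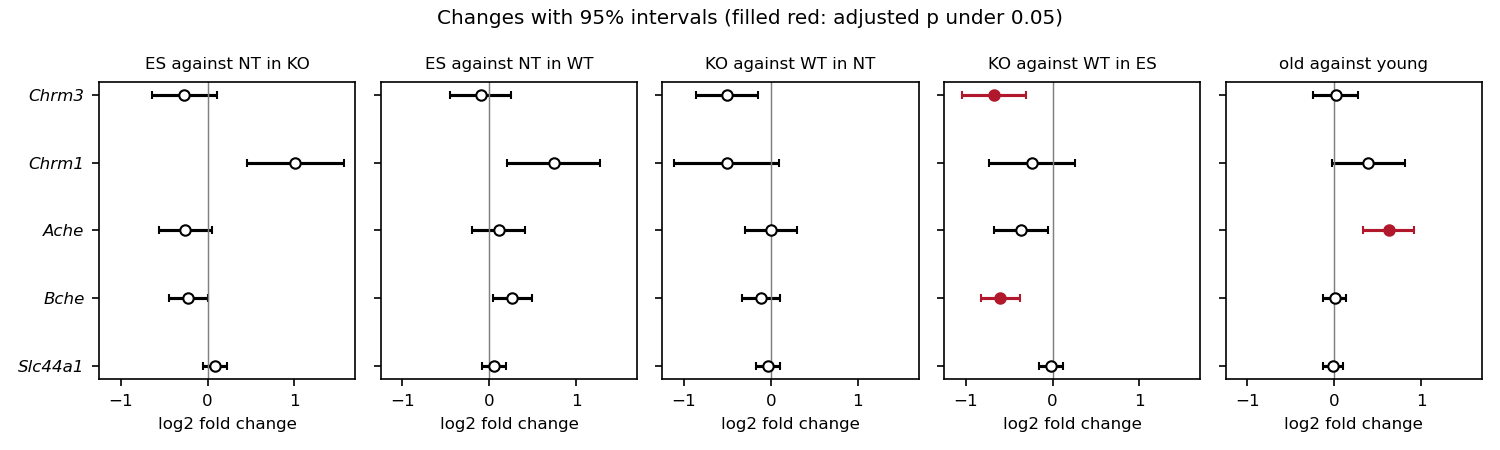
Log2 fold change (dimensionless, x axis) of Chrm3, Chrm1, Ache, Bche and Slc44a1 in 5 comparisons, with 95% intervals; filled points passed edgeR's test at an adjusted p under 0.05. Chat is left out because both KO NT libraries had 0 counts. The filled points are Chrm3 and Bche in KO against WT in ES and Ache in old against young, and every interval of Slc44a1 holds 0.

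Chat, the gene for choline acetyltransferase, was close to the detection limit, and both KO NT libraries had none of it. It had 16 and 6 counts in KO ES (0.508 and 0.170 CPM) against 14 and 11 counts in WT ES (0.455 and 0.412 CPM), and 0 and 0 counts in KO NT against 14 and 19 counts in WT NT (0.440 and 0.638 CPM). The groups overlapped in ES and did not in NT. A count of 0 still allows up to 3 counts in a library of this depth. At that floor of 3 counts per library, the mean CPM in KO NT would be 6.27-fold below that observed in WT NT. The floor covers the counting error of the KO NT libraries only, not that of the WT NT counts.

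In NT, edgeR called Chat lower in KO (adjusted p = 0.0283). It was the single gene of the 6 called in that comparison, where 4.47% of all tested genes were called and 2.11% of all tested genes as lower in KO. Chat passed the count filter through the other groups, so its 0 in KO NT entered the test by that route. The call was lost without WT NT replicate 1 (0.134) or 2 (0.198), KO NT replicate 1 (0.0819) or 2 (0.0858), or WT ES replicate 1 (0.0588) or 2 (0.0568), all adjusted p. It was also lost with no count filter (0.0906), DESeq2 gave the gene no adjusted p, and limma-voom called it (0.0161).

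Over both treatments Chat was called lower in KO (adjusted p = 0.0228), although KO and WT libraries overlapped. That call was lost with no count filter (0.0649) and in 7 of the 8 cases of a library left out, with adjusted p from 0.0522 without KO NT replicate 2 to 0.0972 without WT NT replicate 2, and remained without KO ES replicate 1 alone (0.0199). The 5 others that lost it were KO NT replicate 1, KO ES replicate 2, WT NT replicate 1 and both WT ES libraries. In ES, KO against WT, the log2 fold change was -0.39 ± 0.62 (adjusted p = 0.764). With ES in KO, edgeR did not call Chat (adjusted p = 0.205).

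In the ageing libraries Chat had 12, 18 and 14 counts in old (0.362, 0.508 and 0.438 CPM) against 21, 45 and 41 counts in young (0.635, 1.28 and 1.15 CPM). All old libraries were below all young ones. The log2 fold change of -1.23 ± 0.40 did not pass (adjusted p = 0.0967).

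Tuft cell markers were lower in KO and in old, also in ES, where Chat overlapped between KO and WT. The 17 markers summed to 66.7 to 71.1 CPM in KO ES against 127 to 133 CPM in WT ES, and to 48.3 to 58.2 CPM in KO NT against 116 to 123 CPM in WT NT. In old they summed to 119 to 128 CPM, against 224 to 278 CPM in young. Of 15 tested markers 10 fell in KO in NT, 10 in KO in ES and 10 in old, and none rose. Among the defining ones Dclk1, a kinase of tuft cells, had a log2 fold change of -1.12 in KO in NT and -1.39 in old, and Pou2f3, their master transcription factor, one of -1.20 in KO in NT and -0.79 in old. In KO in ES Pou2f3 was at -0.32 and did not pass (adjusted p = 0.522). Gnat3 and Il25 did not pass the count filter.

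Chat counts can also be given per tuft marker count in the same library. Per 1000 tuft marker counts there were 2.82, 4.11 and 3.69 Chat counts in old and 2.84, 4.595 and 4.58 in young. There were 7.14 and 2.55 in KO ES against 3.57 and 3.09 in WT ES, and none in KO NT, beside 3.58 and 5.52 in WT NT. Old and young overlap, KO ES brackets WT ES, and KO NT is apart. Lymphocytes are another known source of Chat, and their 10 markers, together with myeloid ones, summed to 68.5 to 82.5 CPM in KO NT against 79.6 to 82.5 CPM in WT NT, and to 126 to 143 CPM in old against 45.2 to 70.4 CPM in young. The part of either cell type in the change of Chat was not tested.

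**Figure D3:**
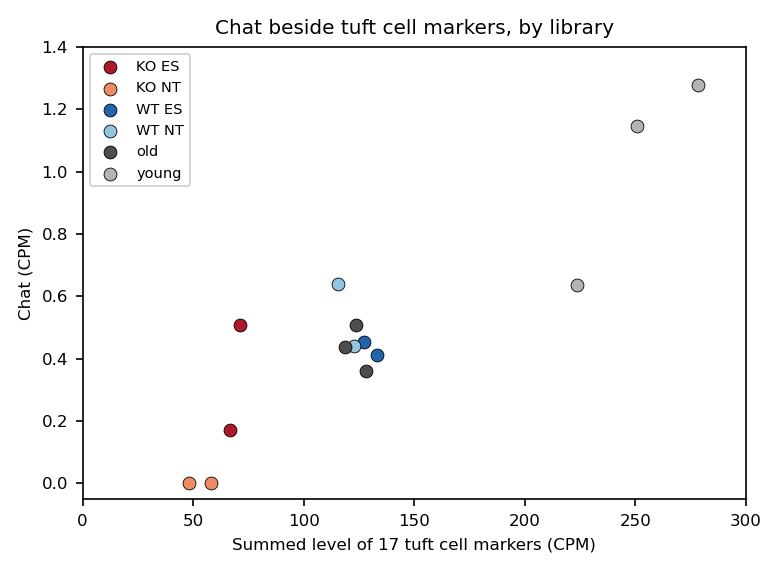
Chat (y axis, CPM after TMM scaling) against the summed CPM of 17 tuft cell markers (x axis), 1 point per library, coloured by group; the 2 experiments were scaled separately. Young libraries lie at the upper right, old libraries near WT NT and WT ES, and the KO libraries at the left with both KO NT points at 0.

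Of the cholinesterases, Ache was higher in old and Bche was lower in KO in ES. Ache had 12.3, 11.8 and 10.2 CPM in old and 6.65, 8.13 and 7.42 CPM in young libraries, or 11.4 ± 1.09 and 7.40 ± 0.739 CPM (SD, n = 3 each). The groups did not overlap. Its log2 fold change was 0.63 ± 0.13 (95% interval 0.33 to 0.92), a 1.54-fold level, and it passed edgeR's test (adjusted p = 0.0153). Ache was the single gene of the 6 called in old against young, a comparison in which 7.84% of 16807 tested genes were called and 4.42% as higher in old. Leaving out old replicate 1 or young replicate 1 lost the call (adjusted p = 0.0808 and 0.0662), at log2 fold changes of 0.57 and 0.56.

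In the first experiment Ache had 8.28 and 7.29 CPM in KO ES against 9.49 and 10.5 CPM in WT ES, and 8.65 and 9.95 CPM in KO NT against 9.27 and 9.24 CPM in WT NT. The KO ES values were the lowest of the 8. No test passed, with log2 fold changes in KO against WT of -0.36 ± 0.14 in ES (adjusted p = 0.147) and 0.00 ± 0.13 in NT (adjusted p = 0.993). ES gave -0.26 in KO (adjusted p = 0.685) and 0.11 in WT (adjusted p = 0.744).

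Bche had 99.3 and 104 CPM in KO ES against 138 and 170 CPM in WT ES, and 110 and 127 CPM in KO NT against 122 and 133 CPM in WT NT. The WT ES libraries were the highest of the 8 and the KO ES libraries the lowest, and the NT groups overlapped. In ES, Bche was lower in KO by a log2 fold change of -0.60 ± 0.10 (95% interval -0.82 to -0.38), 0.660 times WT, with an adjusted p of 0.00591. The call held with each library omitted in turn, at adjusted p between 0.00112 and 0.04997. With the targeted gene Chrm3, Bche made 2 of the 6 genes called there. Of all genes 7.56% were called in that comparison and 4.47% as lower in KO.

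In NT the log2 fold change of Bche in KO against WT was -0.11 ± 0.10 (adjusted p = 0.623), and -0.20 without KO NT replicate 2. ES gave -0.22 ± 0.10 in KO (adjusted p = 0.580) and 0.27 ± 0.10 in WT (adjusted p = 0.181). The difference of these ES effects, KO minus WT, was -0.49 ± 0.14, with a 95% interval of -0.80 to -0.17, and did not pass over all genes (adjusted p = 0.221). Without KO NT replicate 2 this difference was -0.40. Over both treatments Bche was lower in KO (-0.36 ± 0.07, adjusted p = 0.00917), a call lost without WT NT replicate 2 (adjusted p = 0.0615) and kept without KO NT replicate 2 (-0.40, adjusted p = 0.00278).

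With age Bche was not called. It had 108, 111 and 107 CPM in old and 108, 103 and 115 CPM in young libraries, a log2 fold change of 0.00 with a 95% interval of -0.12 to 0.13 (adjusted p = 0.979). The ratio of Bche to Ache per kilobase was accordingly 6.06, 6.41 and 7.19 in old against 11.1, 8.65 and 10.6 in young libraries, which do not overlap. In the first experiment it was 8.22 and 9.74 in KO ES against 9.98 and 11.1 in WT ES, and 8.73 and 8.74 in KO NT, beside 9.05 and 9.91 in WT NT. The ratio was not tested.

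Cell type markers also changed in the comparisons where these enzymes were called. In ES, 8 of 10 enterocyte, 7 of 8 goblet, 9 of 13 enteroendocrine and 10 of 15 tuft markers were lower in KO. So were 3 of 10 Paneth markers, beside 4.47% of all tested genes called lower. There 6 of 10 stem cell markers were higher. In NT, 8 of 8 goblet, 10 of 15 tuft, 2 of 13 enteroendocrine and 2 of 10 Paneth markers were lower in KO. Of 10 enterocyte markers there, 0 were lower and 1 was higher, beside 2.11% of all tested genes called lower. The enterocyte markers summed to 1534 to 1734 CPM in KO ES against 2322 to 2556 CPM in WT ES, and to 1579 to 2206 CPM in KO NT against 1732 to 1764 CPM in WT NT. In old, 7 of 14 enteroendocrine markers and 5 of 7 tested lymphocyte and myeloid markers were higher, beside 4.42% of all tested genes called higher. Other markers went the other way or both ways. There 10 of 15 tuft and 5 of 10 Paneth markers were lower in old. Of 8 goblet markers 3 were higher and 1 lower, and of 10 enterocyte and of 10 stem cell markers 1 was higher and 1 lower. The enteroendocrine sum was 361 to 520 CPM in old against 252 to 282 CPM in young. Markers of enteric neurons, where Ache is abundant, summed to 3.29 to 3.89 CPM in old and 2.93 to 3.55 CPM in young, which overlap. The part of these cell types in the changes of Bche and Ache was not tested.

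Slc44a1, the choline transporter, varied little. It had 276 and 281 CPM in KO ES against 281 and 281 CPM in WT ES, 248 and 277 CPM in KO NT against 266 and 274 CPM in WT NT, and 298, 280 and 309 CPM in old against 297, 291 and 308 CPM in young. KO NT replicate 1 was the lowest library. No comparison called it. The largest log2 fold change was 0.08 with ES in KO, with a 95% interval of -0.06 to 0.22, and the intervals of the other comparisons lay within -0.18 and 0.22.

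Counted over the 6 genes, all of which passed the count filter in both experiments, KO against WT over both treatments had 3 calls. Chrm3, Bche and Chat were called lower and none higher, where 11.9% of all genes were called and 6.23% called lower. Of these, Chrm3 is the gene targeted in KO. Chat passed the count filter through the other groups and had 0 counts in KO NT. The tally is therefore no result about the 6 genes as a set. DESeq2 called 2 of the 6 and gave Chat no adjusted p, limma-voom called 3, and edgeR 0 without WT NT replicate 2. The KO and ES comparisons share libraries and are not independent of each other. With ES in WT, edgeR called 0 of the 6, where 3.48% of all genes were called. There 2 had an unadjusted p under 0.05, and DESeq2 and limma-voom called 0. With ES in KO edgeR called 0, against 0.513% of all genes, 3 had an unadjusted p under 0.05, and DESeq2 and limma-voom called 0. For the difference of the ES effects edgeR called 0, against 0.109% of all genes, with 2 at an unadjusted p under 0.05 and 0 by either other tool.

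**Figure D4:**
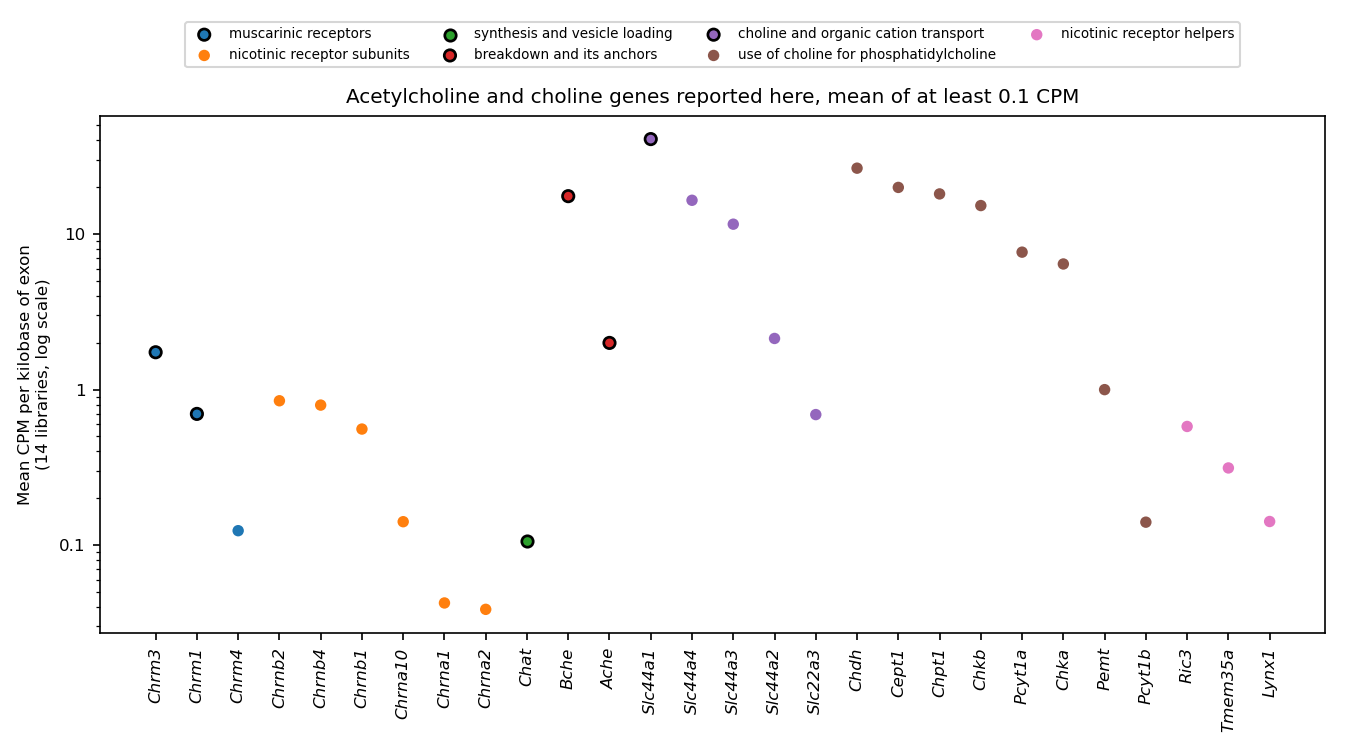
Mean CPM per kilobase of exon over the 14 libraries (log scale) for the acetylcholine and choline genes reported here with a mean of at least 0.1 CPM, coloured by role; black outlines on the points mark the 6 genes described above. Slc44a1 is the highest point at 40.8, Chrm3 and Chrm1 are at 1.74 and 0.698, and Chat is at 0.106.

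The wider set of acetylcholine and choline genes held 51, of which 49 were analysed here, 26 were tested in the first experiment and 27 in the second. A mean of at least 1 CPM was reached by 21 of them, and 20 were below 0.1 CPM. Among receptors, Chrm2 had 0 counts in all 14 libraries, and Chrm4 and Chrm5 averaged 0.178 and 0.00818 CPM. The nicotinic subunits Chrnb2, Chrnb4 and Chrnb1 averaged 7.10, 2.96 and 1.41 CPM, and 10 of the 16 subunits were below 0.1 CPM. Slc5a7, the high-affinity choline transporter of cholinergic neurons, and Slc18a3, which loads acetylcholine into vesicles, had 3 and 6 counts in all libraries together. Slc18a3 lies inside the span of Chat on the same strand without sharing an exon. Prima1, the membrane anchor of Ache, had 0 counts and Colq, its collagen tail, averaged 0.0232 CPM.

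Of 8 genes of choline use and phosphatidylcholine synthesis, 7 averaged at least 1 CPM. Chdh, which oxidises choline to betaine aldehyde in mitochondria, averaged 165 CPM, Chpt1, which completes phosphatidylcholine, 151 CPM, and the choline kinase Chka 77.2 CPM. Among the relatives of Slc44a1, Slc44a3 averaged 58.5, Slc44a4 51.3 and Slc44a2 18.5 CPM. None of the relatives was called in any comparison.

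In KO against WT over both treatments 7 of the 26 tested genes of the set were lower and none higher, beside 11.9% of all tested genes called and 6.23% called lower. In the same comparison 8 of 8 goblet, 12 of 15 tuft and 9 of 13 enteroendocrine markers were lower, and their part in these changes was not tested. The median log2 fold change of the set was -0.17, also with Chat set at its floor in KO NT, and that of all tested genes was -0.00. The count was 3 without WT NT replicate 2 and 5 to 8 without any other library. Besides Bche, the targeted gene Chrm3, and Chat with its 0 counts in KO NT, they included Slc22a3, Chdh and Ric3. In KO against WT in ES 7.56% of all tested genes were called and 4.47% called lower. There 6 of the set were called, Chrm3 among them, and all were lower. That count was 2 without KO ES replicate 2 or WT ES replicate 2, 3 without KO ES replicate 1 or WT ES replicate 1, and 4 without either WT NT library.

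Slc22a3, an organic cation transporter that can carry acetylcholine and choline-like molecules, had the largest fitted change among these 3. It had 1.21 and 1.53 CPM in KO ES against 3.19 and 3.18 CPM in WT ES, and 1.97 and 1.85 CPM in KO NT against 4.52 and 3.76 CPM in WT NT. The KO and WT libraries did not overlap. Over both treatments it was lower in KO, at -1.16 ± 0.17 on the log2 scale (adjusted p = 0.00164), and the call held with each library omitted (adjusted p up to 0.0134). In old it had 5.03, 4.88 and 4.60 CPM, against 1.78, 2.42 and 3.72 CPM in young, which do not overlap, and the log2 fold change of 0.86 ± 0.24 did not pass (adjusted p = 0.0529).

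Ric3, a chaperone of nicotinic receptor assembly, had 3.56 and 3.69 CPM in KO ES against 6.14 and 7.45 CPM in WT ES, and 4.17 and 4.07 CPM in KO NT against 6.66 and 5.48 CPM in WT NT. All KO libraries were below all WT libraries, and the log2 fold change was -0.73 ± 0.13 (adjusted p = 0.00472), kept with each library left out. Ric3 was also lower in old, at 2.77, 3.73 and 3.16 CPM against 5.05, 6.14 and 7.39 CPM in young. That change was -0.94 ± 0.20 (adjusted p = 0.0164), and it did not pass without old replicate 1 (0.0843), young replicate 2 (0.0589) or young replicate 3 (0.0534) and with no count filter (0.0578). Tuft markers fell in the same comparisons, 12 of 15 in KO over both treatments and 10 of 15 in old, and their part in the change of Ric3 was not tested.

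Chdh was lower in KO by a log2 fold change of -0.27 ± 0.04 (adjusted p = 0.00183), kept with each library left out. In old against young 3 of the 27 tested genes were called, 2 higher and 1 lower, with Ache and Ric3 among them, beside 7.84% of all tested genes. The count was 0 without old replicate 1, 1 without young replicate 2 and up to 4 without old replicate 3.

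For the 5 genes with a mean of at least 1 CPM, the most similar profiles over the 8 libraries of the first experiment were taken by Pearson's r of log2(CPM + 0.5) among 11933 genes, which gives the highest of very many values and shares depth, group means and cell makeup. For Chrm3 these were Tpp1, a lysosomal protease (r = 0.99), Gorasp1, a Golgi stacking protein (0.98), and Tmc4, a transmembrane channel-like protein (0.98). Over the 6 ageing libraries the same genes had r of -0.09, -0.49 and -0.55 with Chrm3. For Chrm1 they were Slc35g2 (0.97), Gnao1, a G protein alpha subunit (0.96), and Sybu (0.96), with r of -0.38, 0.49 and -0.71 over the ageing libraries.

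For Ache the most similar were Ces2c, a carboxylesterase (0.98), Rdh7, a retinol dehydrogenase (0.97), and Slc46a1, the intestinal folate transporter (0.97), with r of 0.55, 0.92 and -0.54 over the ageing libraries. For Bche they were Cd36, a fatty acid transporter (0.99), Cpm, carboxypeptidase M (0.98), and Pag1 (0.98), with 0.56, 0.25 and 0.33. For Slc44a1 they were Scg3 (0.96), Btg1 (0.95) and Nlrc3 (0.95), with -0.14, -0.07 and 0.17. Only Rdh7 stayed above 0.9 in the ageing libraries.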

How the data were processed

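The authors deposited raw, unnormalised counts by Ensembl gene, in 1 table of 8 libraries and another of 6. Per the labels' protocols, total RNA was extracted with Trizol and polyadenylated RNA made into strand-specific TruSeq libraries. Per the submitters' processing notes the genome was mm10 and FastQC 0.11.2 was run. Aligner and counting tool: not given in the sources used here. Columns named Ctrl were read as NT.

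Genes were kept by filterByExpr defaults, counts scaled by TMM, and a quasi-likelihood model with 1 mean per group fitted in edgeR 4.0.16 (R 4.3.3) to each table on its own, with all its libraries sharing the spread. P-values were adjusted by Benjamini-Hochberg over all tested genes, and an adjusted p under 0.05 is a call. The ± of a log2 fold change is an approximate standard error from the F statistic, and ± of a level is the SD. Exon lengths and positions are from GENCODE M21 (55154 of 55335 identifiers matched), and promoters from RefSeq. The fit was tested on simulated data with changes planted only in better expressed genes. Genes as low as Chat and Chrm1 in the first experiment were not covered by it. Genes, lists, comparisons and the naming rule were chosen with earlier results of these data known. By that rule the 6 genes were always named, then called genes of the set, the 3 highest of each role and the 3 most similar profiles. A called gene of the set is not reported here. Genes pointed out beyond it (Chrm2, Chrm5, Prima1, Slc44a2 and tuft or stem cell markers) were picked after their values were seen. Alternatives were other size factors, other count filters, DESeq2 1.42.0, limma-voom (limma 3.58.1), a term for the replicate number, a fit of only the groups compared, each library left out, and an older form of the quasi-likelihood test, added after seeing the data. Libraries held 26.7 to 36.9 M counts, replicate pairs differed by more than counting error (chi-square over its degrees of freedom, 3.59 to 25.8), and floors cover counting error only.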

Additional observations from a re-analysis of the deposited data

How the results depend on the processing

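Of the calls named, those of Bche in KO in ES, and of Slc22a3, Chdh and Ric3 in KO over both treatments, held under all alternatives run. With no count filter the genes called numbered 114 with ES in WT (605 as reported), 8 with ES in KO (89), 317 in KO in NT (776), 593 in KO in ES (1312), 105 with ES over both genotypes (447), 1202 in KO over both treatments (2071), 0 for the difference of ES effects (19), and 666 in old (1318), where more genes are tested. Of the 6 genes it called 0 in KO in NT, 1 in KO in ES and 0 with ES over both. The 1 CPM filter and DESeq2 each called 0 of the 6 in KO in NT, as Chat was removed or got no adjusted p. DESeq2 called 932 genes with ES in WT, 199 with ES in KO and 178 for the difference, limma-voom 8 and the older form of the test 11 for the difference. Same-numbered libraries correlated from -0.01 to 0.40 in the first experiment and from 0.00 to 0.31 in the ageing one. In the ageing one 4 of 6 libraries matched their own number best. The labels do not say that a number marks a shared animal or day, so the main fit had no term for it. A replicate block gave 970 genes with ES in WT, with 1 of the 6 (Bche, adjusted p = 0.0475), 206 with ES in KO, 104 for the difference and 2019 in old. Fitting only the groups compared gave 1875 with ES in WT, with 1 of the 6 (Chrm1, adjusted p = 0.0433), and 24 with ES in KO. Leaving out 1 library gave 23 to 1209 genes with ES in WT, 11 to 278 with ES in KO, 145 to 848 in KO in NT, 375 to 1936 in KO in ES, 75 to 778 with ES over both, 927 to 2356 in KO over both, 0 to 363 for the difference and 636 to 1485 in old. Of the 6 it gave 0 to 1 in KO in NT, 1 to 2 in KO in ES, 0 to 1 with ES over both, 0 to 3 in KO over both and 0 to 1 in old. The log2 fold changes that turned sign were all uncalled. By limma-voom that of Ache in KO in NT was -0.0019. With a library left out Chrm3 ran from -0.20 to 0.013 with ES in WT, from -0.39 to 0.032 for the difference and from -0.059 to 0.12 in old, Chrm1 from -0.56 to 0.045 in KO in ES and from -0.059 to 0.55 for the difference, Ache from -0.084 to 0.11 in KO in NT, Bche from -0.054 to 0.092 with ES over both and from -0.034 to 0.047 in old, and Chat from -1.33 to 0.22 in KO in ES. Slc44a1 turned in KO in NT (-0.10 to 0.041), in KO over both (-0.063 to 0.015), for the difference (-0.053 to 0.084) and in old (-0.043 to 0.019). The causes were not tested. Chat had under 50 counts in every library, and the groups of the first experiment had n = 2, both of which limit its values.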
